A study of Mus musculus with 4 samples.

Results

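B cells with an IgD heavy chain were described among CD45+ cells washed from the peritoneal cavity of knockout (KO) and wild-type (WT) mice. A cell barcode entered the group when its heavy-chain contig with the most unique molecular identifiers (UMIs) carried the IgD constant gene, IGHD, and when its expression profile had at least 200 genes and under 10% mitochondrial UMIs. These IGHD barcodes numbered 582 of the 32345 kept barcodes, 445 of them in the KO library and 137 in the WT library. They were set against the 12225 KO and 5681 WT barcodes whose leading heavy-chain contig carried the IgM constant gene, IGHM. Mice of both genotypes started a high-fat diet at 4 weeks of age and stayed on it for 3 months, and the lavage cells were sorted on CD45. Each genotype gave 1 droplet-based expression library and 1 matched B-cell receptor library, and how many mice a library comes from is not stated in the labels. Genotype and library cannot be told apart, so no test between KO and WT was made. Intervals in brackets are 95% intervals that cover counting error only.

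IgM and IgD are made from one rearranged heavy-chain gene, whose long primary transcript is processed either to the mu or to the delta constant exons. The nuclear protein ZFP318 is needed for the delta form. Mature follicular B cells, the conventional B-2 type, carry both receptors, whereas B-1 cells, which renew themselves in the body cavities and secrete natural IgM, carry much IgM and little IgD.

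The heavy-chain CDR3, the junction of V, D and J segments that is particular to a B-cell clone, is printed for 3 IGHD clones of each library, because each of them was read on IGHD and on IGHM barcodes. A clone is a set of barcodes of 1 library with the same V gene, J gene and CDR3 nucleotide sequence in both the heavy and the light chain. The clones are those with the most barcodes, with ties settled by the number of IGHD barcodes and then by heavy-contig UMIs. The sequences are those of the deposited contigs, written 5′ to 3′ on the coding strand, and the capitals mark the first and the last codon, those of the conserved cysteine and tryptophan.
KO clone 1: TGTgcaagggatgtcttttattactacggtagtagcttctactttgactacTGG
KO clone 2: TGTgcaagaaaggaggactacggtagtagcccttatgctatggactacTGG
KO clone 3: TGTgcaagaggactaggctacTGG
WT clone 1: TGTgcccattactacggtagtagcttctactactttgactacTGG
WT clone 2: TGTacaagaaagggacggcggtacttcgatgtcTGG
WT clone 3: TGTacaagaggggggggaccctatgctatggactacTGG

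KO clone 1 joined IGHV5-16 to IGHJ2 over 18 residues, paired with IGKV1-117, and was found on 2 IGHD and 2 IGHM barcodes. KO clone 2, of IGHV1-69 and IGHJ4 with 17 residues and IGKV3-2, was found on 1 IGHD and 3 IGHM barcodes. KO clone 3, of IGHV3-4 and IGHJ2, had the short CDR3 of 8 residues, paired with IGKV6-17, and was found on 2 IGHD barcodes and 1 IGHM barcode. All barcodes of these 3 KO clones lay in clusters with B-2 markers. WT clone 1, of IGHV1-82 and IGHJ2 with IGKV17-121, was found on 1 IGHD barcode, which lay in an NK-like cluster, and on 3 IGHM barcodes, all of them called doublets and not clustered. WT clone 2, of IGHV1-15 and IGHJ1, and WT clone 3, of IGHV1-5 and IGHJ4, were each found on 1 IGHD and 1 IGHM barcode. Both barcodes of WT clone 2 lay in a B-2-like cluster, whereas of WT clone 3 the IGHD barcode lay in an unnamed cluster and the IGHM barcode was a called doublet.

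In expression the KO library had 103953298 UMIs over 22516 barcodes, median 3298 per barcode, and the WT library 81817635 UMIs over 10087 barcodes, median 6362. The 2 libraries had 293 barcode sequences in common. The KO library stood apart in the receptors its barcodes shared: 53.5% (48.6 to 58.2) of its IGHD barcodes with a light chain, 232 of 434, belonged to clones of at least 2 barcodes, against 3.01% (0.825 to 7.52) in the WT library, 4 of 133. Among IGHM barcodes the shares were 63.0% in the KO and 26.7% in the WT library. Results that rest on KO barcodes are therefore also given with 1 barcode per clone or with clones of 1 barcode only, where these change the call.

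The label was checked in the expression data with Ighd and with Fcer2a, which encodes CD23, the low-affinity IgE receptor of follicular B cells. Ighd was at 305 CPM (UMIs scaled to an equal library total) in KO IGHD and 343 CPM in WT IGHD barcodes, against 90.6 CPM in KO IGHM and 68.0 CPM in WT IGHM barcodes. Fcer2a was at 347 CPM in KO IGHD and 424 CPM in WT IGHD barcodes, against 94.2 CPM in KO IGHM and 81.2 CPM in WT IGHM barcodes. Both markers were thus higher in the IGHD class of either library. At least 1 Ighd UMI was present in 47.0% of KO and 67.2% of WT IGHD barcodes, and in 27.1% of KO and 33.5% of WT IGHM barcodes. IGHD barcodes had a median of 1903 UMIs in KO and 3671 in WT, and IGHM barcodes had 3436 and 7034. When each barcode was thinned to 1000 UMIs, which left out 40 KO and 3 WT IGHD barcodes and 259 KO and 19 WT IGHM barcodes, Ighd was seen in 26.2% (22.0 to 30.7) of KO and 30.6% (22.9 to 39.1) of WT IGHD barcodes, against 10.6% of KO and 9.08% of WT IGHM barcodes. T-like clusters, whose cells should lack the gene and whose median depth was 2181 UMIs in KO and 4370.5 in WT, gave 0.641% in KO and 0.0550% in WT, so the IGHD share lay above the free-RNA level. Ighm, the mu constant gene, was also read in the IGHD class: thinned shares were 50.4% in KO and 46.3% in WT IGHD barcodes, against 65.6% and 66.1% in IGHM barcodes and 13.7% and 11.9% in T-like clusters.

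Clusters were named from marker genes, with immunoglobulin genes left out of the clustering. The rule for B-2-like and B-1-like names, a gap above 0.5 log2 between B-2 and B-1 marker scores, was set after seeing the data. B-2-like clusters held 83.3% (79.3 to 86.8) of the clustered KO IGHD barcodes, 334 of 401, and 92.3% (86.3 to 96.2) of those of WT, 120 of 130. Of IGHM barcodes they held 39.1% in KO and 32.0% in WT, while B-1-like clusters held 55.0% and 61.3%. B-1-like clusters held 6.48% (4.28 to 9.36) of KO IGHD barcodes, 26 in number, and 1.54% (0.187 to 5.45) of WT IGHD barcodes, 2 in number. Smaller numbers lay in T-like clusters, 5 in KO and 3 in WT, and in an NK-like cluster, 4 in KO and 1 in WT. Of the B-2-like clusters, cluster 0 held 183 KO and 90 WT IGHD barcodes and cluster 5 held 151 KO and 30 WT IGHD barcodes. Cr2, the complement receptor CD21, was at 157 CPM in cluster 5 and 45.9 CPM in cluster 0.

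The share of heavy-chain barcodes called IGHD was 3.46% (3.15 to 3.8) in the KO library, 445 of 12845, and 2.33% (1.96 to 2.74) in the WT library, 137 of 5889, a KO over WT ratio of 1.49 (1.23 to 1.80). Within B-2-like clusters the shares were 7.66% (6.89 to 8.49) in KO and 6.67% (5.56 to 7.93) in WT. The ratio there was 1.15 (0.938 to 1.40), an interval that holds 1. In B-1-like clusters the shares were 0.455% (0.298 to 0.666) in KO and 0.0618% (0.00748 to 0.223) in WT.

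IGHD calls were concentrated among barcodes with few heavy-chain UMIs. The leading contig of an IGHD barcode had a median of 7 UMIs in KO and 11 in WT, against 20 and 33 in IGHM barcodes. Within B-2-like clusters, 33.3% of KO and 58.3% of WT barcodes with 1 to 2 contig UMIs were called IGHD. With 6 to 10 contig UMIs the shares were 8.70% in KO and 8.97% in WT, and with 21 to 40 they were 2.04% and 2.96%. Above 40 contig UMIs there was no IGHD call among 98 KO barcodes, with an upper bound of 3.69%, and 2.0% of 100 WT barcodes were IGHD. The share was thus lower in each deeper range of contig UMIs in both libraries, and the part of contig depth in the difference between KO and WT was not tested.

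**Figure D1:**
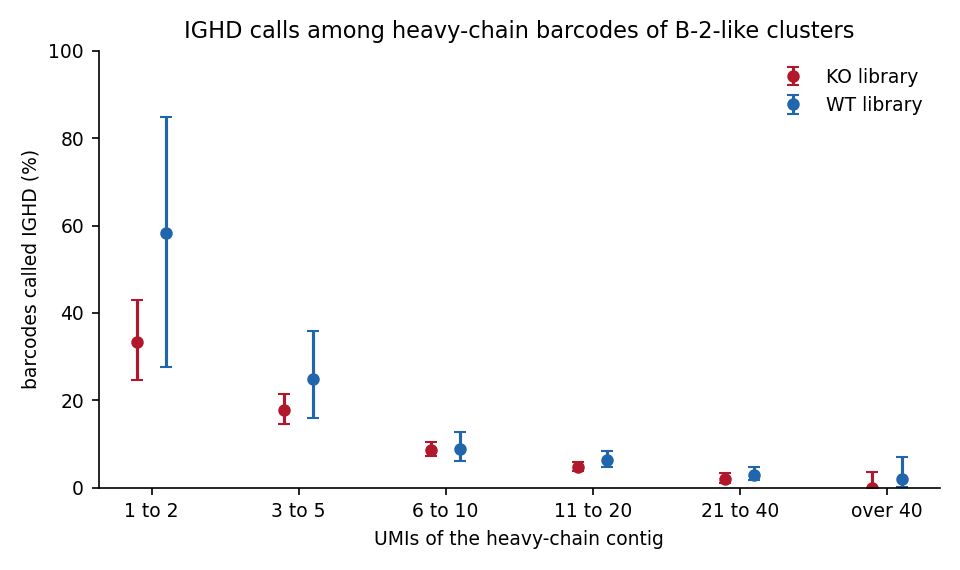
Share of heavy-chain barcodes of B-2-like clusters called IGHD (vertical axis, %) by the UMIs of their leading heavy-chain contig (horizontal axis), for the KO library (red) and the WT library (blue), with exact 95% intervals. Shares go down from 33.3% in KO and 58.3% in WT at 1 to 2 UMIs to 2.04% and 2.96% at 21 to 40 UMIs.

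Most IGHD barcodes had a single heavy-chain contig, 419 of 445 in KO and 135 of 137 in WT. An IGHM contig stood second in 19 KO and 2 WT IGHD barcodes, and in 0 of them did both contigs have the same CDR3. Conversely, 104 KO and 19 WT IGHM barcodes held a lesser IGHD contig, and 0 of these shared the CDR3 either. Second contigs of the other class were therefore of another rearrangement in every barcode that had one, and IgM and IgD of the same rearrangement were not read as 2 contigs in any barcode. Whether the contig assembly can give 2 contigs of 1 rearrangement in a barcode was not tested. The counts of 0 therefore do not show whether a cell holds both transcripts. More than 1 heavy-chain CDR3 was present in 5.84% of KO and 1.46% of WT IGHD barcodes, against 13.4% and 9.63% of IGHM barcodes. Computed doublets made up 9.89% of KO and 5.11% of WT IGHD barcodes, against 16.7% and 8.45% of IGHM barcodes. In the KO library the leading and the second contig of 7 IGHD barcodes were tied in UMIs, and in 7 more they were 1 or 2 UMIs apart.

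IGHD and IGHM contigs of 1 clone were instead found on different barcodes. The transcripts were not divided in this way: at least 1 Ighm UMI was present in 74.2% of KO and 86.1% of WT IGHD barcodes. In T-like clusters the shares were 27.6% and 36.4%. The 202 KO clones of at least 2 barcodes that held an IGHD barcode comprised 438 barcodes, 232 IGHD and 206 IGHM, and 179 of these clones contained an IGHM barcode. The 4 such WT clones comprised 4 IGHD and 6 IGHM barcodes. Of 272 barcode pairs in the KO clones, 30 were IGHD with IGHD and 214 were IGHD with IGHM. Where both barcodes were clustered, 94.6% of the KO pairs fell in the same class of clusters. In KO clones of exactly 2 barcodes within B-2-like clusters, 28.2% of the partners of an IGHD barcode were IGHD, against 6.57% of the partners of an IGHM barcode.

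IGHD clones were small in both libraries. The largest had 4 barcodes in KO and 4 in WT, against 109 and 142 for the largest IGHM clone. The largest size also depends on the number of barcodes, which was far lower in the IGHD class. Within B-2-like clusters only 12 of 3974 KO and 2 of 1660 WT IGHM barcodes lay in clones of 5 or more, the largest of 99 and 28. KO IGHD barcodes comprised 202 without a partner, 193 in clones of 2, 36 in clones of 3 and 3 in clones of 4. Among WT IGHD barcodes 129 had no partner, 3 lay in clones of 2 and 1 in a clone of 4. Within B-2-like clusters 55.4% (49.9 to 60.8) of KO and 1.68% (0.204 to 5.94) of WT IGHD barcodes were in clones of at least 2, beside 54.2% of KO and 4.28% of WT IGHM barcodes. IGHD and IGHM thus had like shares within the B-2-like clusters of the KO library, and the gap between the libraries was present in both classes. Barcodes that shared a receptor were shallow: KO IGHD barcodes in clones of at least 2 had a median of 1620.5 UMIs, against 2613 in those without a partner. The barcode sequences of KO clone partners differed at 7 or more positions, with a median of 12. The cause of the shared receptors was not tested.

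**Figure D2:**
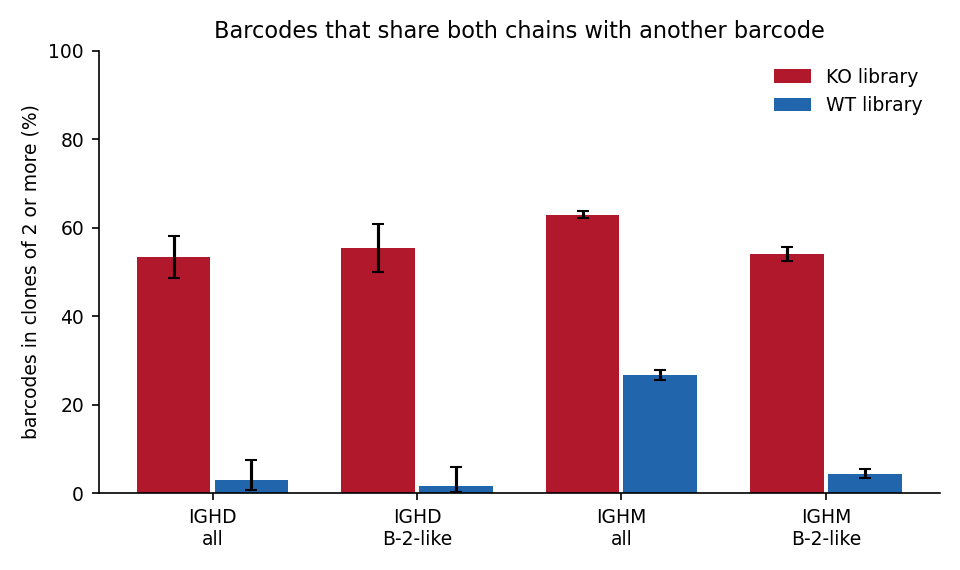
Share of barcodes (vertical axis, %) whose heavy and light chains were both shared with at least 1 other barcode of the library, by heavy-chain class and set of clusters (horizontal axis), in the KO library (red) and the WT library (blue), with exact 95% intervals. For IGHD barcodes the bars stand at 53.5% in KO and 3.01% in WT, and in B-2-like clusters at 55.4% and 1.68%.

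Heavy chains of the IGHD class came mainly from the large IGHV1 family. IGHV1 segments made up 69.0% (64.5 to 73.3) of KO and 72.3% (64.0 to 79.6) of WT IGHD barcodes, against 42.6% and 39.1% of IGHM barcodes. Within B-2-like clusters each clone was also counted once per class, so a clone with IGHD and IGHM barcodes counts in both classes. Over all clusters 179 of 202 KO clones of at least 2 barcodes with an IGHD barcode also contained an IGHM barcode. The IGHV1 shares in B-2-like clusters were 70.4% (64.9 to 75.4) in KO and 74.2% (65.4 to 81.7) in WT IGHD clones. IGHM clones there were at 55.6% (53.8 to 57.4) in KO and 56.9% (54.4 to 59.3) in WT. The IGHD intervals lay above the IGHM intervals in both libraries, so the difference was also present among clones of B-2-like clusters. IGHV14 was at 5.62% of KO and 8.03% of WT IGHD barcodes, against 3.44% and 3.10% of IGHM barcodes. Within B-2-like clones IGHV14 was at 5.54% (3.26 to 8.72) in KO and 7.5% (3.49 to 13.8) in WT IGHD clones. IGHM clones there were at 3.46% (2.84 to 4.16) and 3.43% (2.60 to 4.42), so the intervals overlapped in both libraries. Among single genes IGHV1-9 was at 3.82% of KO and 4.38% of WT IGHD barcodes, against 1.61% and 1.25% of IGHM barcodes. Within B-2-like clones IGHV1-9 was at 4.23% (2.27 to 7.13) in KO and 5.0% (1.86 to 10.6) in WT IGHD clones. IGHM clones there were at 2.18% (1.70 to 2.77) and 1.59% (1.04 to 2.32), and the intervals again overlapped in both libraries. IGHV1-26 was at 7.42% in KO and 6.57% in WT IGHD barcodes, against 4.02% and 3.50% of IGHM barcodes, but within B-2-like clusters the classes were close, at 6.89% and 6.67% of IGHD against 6.31% and 6.97% of IGHM barcodes.

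Several V segments, among them those typical of B-1 cells, were scarce in the IGHD class. IGHV11-2 and IGHV12-3, typical of B-1 antibodies against phosphatidylcholine, were found in 0 of 445 KO and 0 of 137 WT IGHD barcodes, where the limit of 3 counts corresponds to 0.674% and 2.19% and the exact upper bounds are 0.826% and 2.66%. In IGHM barcodes IGHV11-2 was at 4.51% in KO and 8.64% in WT, and IGHV12-3 at 6.62% and 10.5%. Both genes were also rare in IGHM barcodes of B-2-like clusters. IGHV11-2 was found there in 9 of 3980 KO and 1 of 1664 WT IGHM barcodes, and IGHV12-3 in 10 and 3. For IGHD barcodes of these clusters, 0 of 334 in KO and 0 of 120 in WT, the upper bounds were 1.10% and 3.03%. The intervals of the classes overlapped there in both libraries, so no difference was shown among B-2-like barcodes. IGHV6 was at 0.899% of KO and 0 of 137 WT IGHD barcodes, against 5.36% and 5.07% of IGHM barcodes. IGHV2 was at 2.02% of KO and 2.19% of WT IGHD barcodes, against 7.08% and 6.60% of IGHM barcodes. Within B-2-like clones IGHV2 was at 2.61% (1.13 to 5.07) in KO and 1.67% (0.202 to 5.89) in WT IGHD clones. IGHM clones there were at 6.0% (5.18 to 6.90) and 5.69% (4.62 to 6.92), so the intervals overlapped in WT but not in KO.

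**Figure D3:**
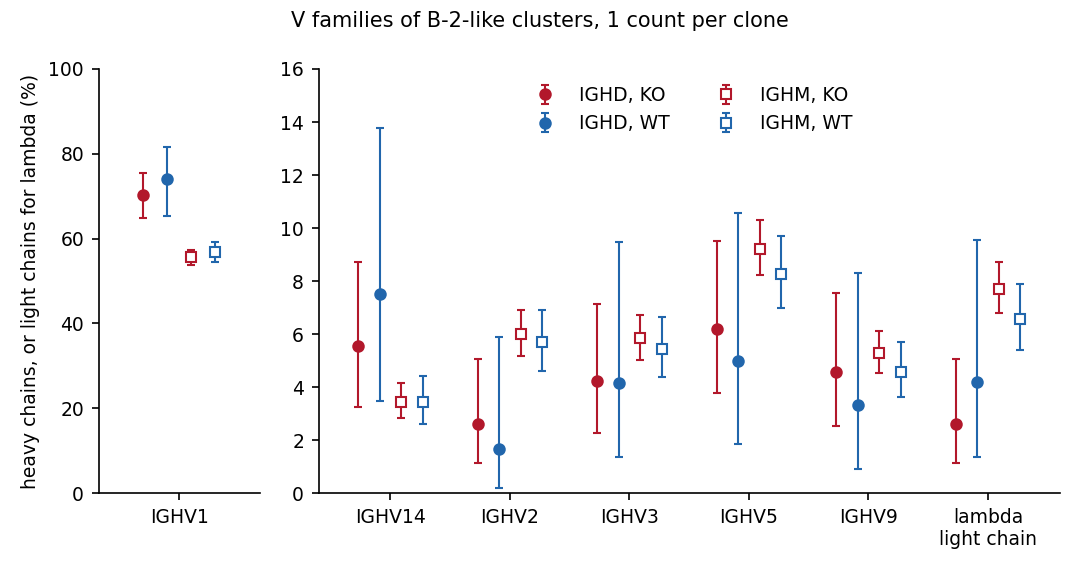
Share of clones of B-2-like clusters (vertical axes, %) that used each heavy-chain V family or a lambda light chain (horizontal axes), for IGHD (filled circles) and IGHM (open squares) in the KO (red) and WT (blue) libraries, with exact 95% intervals. IGHV1 has its own axis, on which the IGHD classes stand at 70.4% in KO and 74.2% in WT, above both IGHM classes.

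Lambda light chains paired with 3.23% (1.77 to 5.36) of KO and 3.76% (1.23 to 8.56) of WT IGHD barcodes, against 12.5% and 11.6% of IGHM barcodes. Within B-2-like clones lambda was at 2.61% in KO and 4.20% in WT IGHD clones, against 7.71% and 6.56% in IGHM clones, and the WT intervals overlapped. The kappa gene IGKV6-17 was at 5.07% of KO and 5.26% of WT IGHD barcodes, against 1.75% and 1.73% of IGHM barcodes. Within B-2-like clones IGKV6-17 was at 4.23% (2.27 to 7.13) in KO and 5.88% (2.40 to 11.7) in WT IGHD clones, against 2.81% (2.25 to 3.46) and 2.45% (1.76 to 3.32) in IGHM clones, and the intervals overlapped in both libraries. Over all barcodes IGHJ4 was used by 19.6% (16 to 23.5) of KO and 17.5% (11.6 to 24.9) of WT IGHD barcodes. IGHM barcodes were at 23.7% (23.0 to 24.5) and 20.6% (19.6 to 21.7), and the intervals overlapped in both libraries. Within B-2-like clones IGHJ4 was at 20.8% (16.4 to 25.8) in KO and 18.3% (11.9 to 26.4) in WT IGHD clones. IGHM clones there were at 27.7% (26.1 to 29.3) and 25.8% (23.7 to 28.0), so the intervals overlapped in WT but not in KO. The CDR3 of IGHD barcodes was 13.8 ± 2.66 residues long in KO and 13.9 ± 2.45 in WT (SD over barcodes), against 13.2 ± 2.59 and 13.1 ± 2.59 in IGHM barcodes. A CDR3 of 16 or more residues was carried by 27.2% (23.1 to 31.6) of KO and 27.7% (20.4 to 36.0) of WT IGHD barcodes, against 17.0% and 15.8% of IGHM barcodes. Within B-2-like clusters IGHM barcodes reached 23.0% in KO and 26.4% in WT, so most of that gap lay between B-2-like and other IGHM barcodes.

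IGHD V regions were close to uniform in sequence. The V region was identical to the commonest sequence of its V gene in the series in 99.1% (97.7 to 99.8) of KO and 99.3% (96.0 to 99.98) of WT IGHD barcodes, 437 of 441 and 136 of 137. The shares were 94.8% in KO and 97.0% in WT IGHM barcodes. In barcodes of the other isotypes, which can carry somatic mutations, they were 54.3% in KO and 54.9% in WT. Within B-2-like clusters IGHD barcodes were at 99.1% (97.4 to 99.8) in KO and 99.2% (95.4 to 99.98) in WT. IGHM barcodes there were at 97.2% (96.6 to 97.7) in KO and 98.2% (97.4 to 98.8) in WT, so the intervals of the classes overlapped. Heavy chains found in both libraries, with the same V gene, J gene and CDR3 nucleotides, were found in 0 of 445 KO and 0 of 137 WT IGHD barcodes. Of IGHM barcodes 11.2% in KO and 17.1% in WT carried such a shared heavy chain, but within B-2-like clusters the IGHM shares were 0.804% and 0.541%.

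Expression of the IGHD and IGHM classes was compared over 4 sums of UMIs, 1 for each class and library, with the library as a block. The test was edgeR's quasi-likelihood test with Benjamini-Hochberg adjustment. Its spread comes from 2 libraries of different genotype with 1 residual degree of freedom. For each gene that spread is drawn towards the spread of other genes, so the p-values do not measure spread between mice. Of 12291 genes tested 1031 (8.39%) were called, 315 (2.56%) higher and 716 (5.83%) lower in IGHD. Immunoglobulin genes were called far more often, 112 of 218 (51.4%), than other genes, 919 of 12073 (7.61%). The count was 320 with no replicate block, 341 with DESeq2 and 512 in clones of 1 barcode only. The 2 classes also differed in depth and in cluster makeup, and the IGHM class held mostly B-1-like barcodes. The direction of Ighd and Ighm is not independent of the way the barcodes were sorted.

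Genes of the follicular B-2 programme were mostly higher in IGHD barcodes. Of the 19 B-2 and follicular genes tested 14 were higher, Ighd among them, and 2 lower, with a median log2 fold change of 1.0, against −0.04 over all genes. Over all genes 2.56% were higher and 5.83% lower. Fcer2a, given above, was 3.90-fold higher (log2 1.96, SE 0.114, adjusted p = 7.8e-63). Cr2 was at 76.8 CPM in KO and 84.5 CPM in WT IGHD barcodes, against 28.3 and 22.2 CPM in IGHM barcodes (log2 1.5, SE 0.189, adjusted p = 2.3e-13). Icosl, the ligand through which B cells engage helper T cells, was at 70.3 CPM in KO and 93.6 CPM in WT IGHD barcodes, against 23.9 and 19.7 CPM in IGHM barcodes (log2 1.71, SE 0.193, adjusted p = 1.1e-16). In all 3 genes both IGHD sums lay above both IGHM sums. Satb1, a chromatin organiser, had a log2 fold change of 1.5, Bach2, a repressor of plasma-cell fate, 1.09, and Fcrl1, an Fc receptor-like protein of B cells, 1.34.

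Zfp318, which is needed for the delta transcript, was at 106 CPM in KO and 103 CPM in WT IGHD barcodes, against 40.4 CPM in KO and 37.7 CPM in WT IGHM barcodes. It rose 2.40-fold (log2 1.26, SE 0.159, adjusted p = 1.8e-13). Against the 104 KO and 19 WT IGHM barcodes that also held an IGHD contig it was not called (adjusted p = 0.497), and Vpreb3, Icosl, Satb1 and Cd72 were not called there either. Zfp318 was 1 of 13 genes of IgM and IgD transcript processing to be called, beside 2.56% higher and 5.83% lower over all genes. The median of that list was −0.06. Hnrnpf, a splicing factor, had a log2 fold change of 0.07 (adjusted p = 0.82), and Ell2, an elongation factor that favours the secreted mu form, 0.03 (adjusted p = 0.98). Ighm was at 640 CPM in KO and 569 CPM in WT IGHD barcodes, against 1206 and 1176 CPM in IGHM barcodes, a log2 fold change of −1.13.

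Ccr7, the receptor that guides B cells to lymph-node T zones, was at 1025 CPM in KO and 1111 CPM in WT IGHD barcodes, against 442 and 422 CPM in IGHM barcodes (log2 1.15, SE 0.0994, adjusted p = 3.9e-28). The integrin chains Itgb1 (log2 −1.0) and Itgb7 (log2 −0.79) were lower. Of 16 homing genes 4 were higher and 2 lower, beside 2.56% higher and 5.83% lower over all genes. In MHC class II, 3 of 12 genes were higher and 0 lower: H2-Oa (log2 0.67) and H2-Ob (log2 0.45), which encode the DO chaperone that restrains peptide loading, and H2-Eb2 (log2 0.86). H2-Ob lost its call without the replicate block and in clones of 1 barcode only, Itgb7 without the block, and H2-Eb2 with DESeq2. Cxcr5, the follicle-homing receptor, was at 83.4 CPM in KO and 136 CPM in WT IGHD barcodes, against 98.1 and 104 CPM in IGHM barcodes, and was not called (log2 −0.10, adjusted p = 0.82).

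Of 26 B-cell receptor signalling genes 4 were higher and 5 lower, beside 2.56% higher and 5.83% lower over all genes. Cd72, an inhibitory coreceptor, was at 126 CPM in KO and 140 CPM in WT IGHD barcodes, against 48.4 and 44.1 CPM in IGHM barcodes (log2 1.36, SE 0.144, adjusted p = 8.9e-19). Rasgrp3, which links the receptor to Ras, had a log2 fold change of 1.21. Ms4a1, which encodes CD20, was lower (log2 −0.69, SE 0.099, adjusted p = 2.2e-10), and so was Cd79b, a signalling chain of the receptor (log2 −0.39), whose call was lost without the replicate block. Its partner Cd79a was not called (adjusted p = 0.535).

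Among the 12 genes outside the immunoglobulins with the highest fold changes were also Vpreb3 (log2 1.75), a VpreB-family protein of B cells, Pxdc1 (1.65), Neurl3 (1.53), Lrrk2 (1.46), Frat2 (1.46) and Treml2 (1.43), of which Treml2 lost its call in clones of 1 barcode only. Neurl3 was at 136 CPM in KO and 121 CPM in WT IGHD barcodes, against 46.9 and 32.6 CPM in IGHM barcodes. The first of the 12, Prg4 (log2 2.70), and Rgs1 (1.63) rested on few cells: 82.1% of Prg4 UMIs in KO IGHD and 100% in WT IGHD barcodes came from 1 barcode, and 89.0% of Rgs1 UMIs in WT IGHD came from 1 barcode. Both lost their call in B-cell clusters alone (adjusted p = 0.58 and 0.78).

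The 12 lowest fold changes outside the immunoglobulins were Ahnak2, Zbtb32, Lmo7, Cd80, Gas7, Dnase1l3, Prkar2b, Zcwpw1, Dkkl1, Prdm1, Csf2rb and Slc7a7, from log2 −5.00 to −2.83. Jchain was kept out of this ranking together with the immunoglobulin genes. Ahnak2 and Dnase1l3 lost their calls without the replicate block. Ahnak2, a giant scaffold protein, had 2 UMIs in KO IGHD and 0 UMIs in WT IGHD barcodes, against 27.6 CPM in KO and 51.4 CPM in WT IGHM barcodes. The KO ratio was 0.0679 (0.00821 to 0.246), and the WT level was at least 9.34-fold lower. Lmo7 was at 10.3 CPM in KO and 1.84 CPM in WT IGHD barcodes, against 71.3 and 104 CPM in IGHM barcodes (log2 −3.63, SE 0.262, adjusted p = 2.0e-40). Prkar2b, a regulatory subunit of protein kinase A, had a log2 fold change of −3.18 (SE 0.256, adjusted p = 1.7e-32). The IGHD levels of these 12 genes were low, at or below 14.1 CPM in KO and 7.34 CPM in WT.

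**Figure D4:**
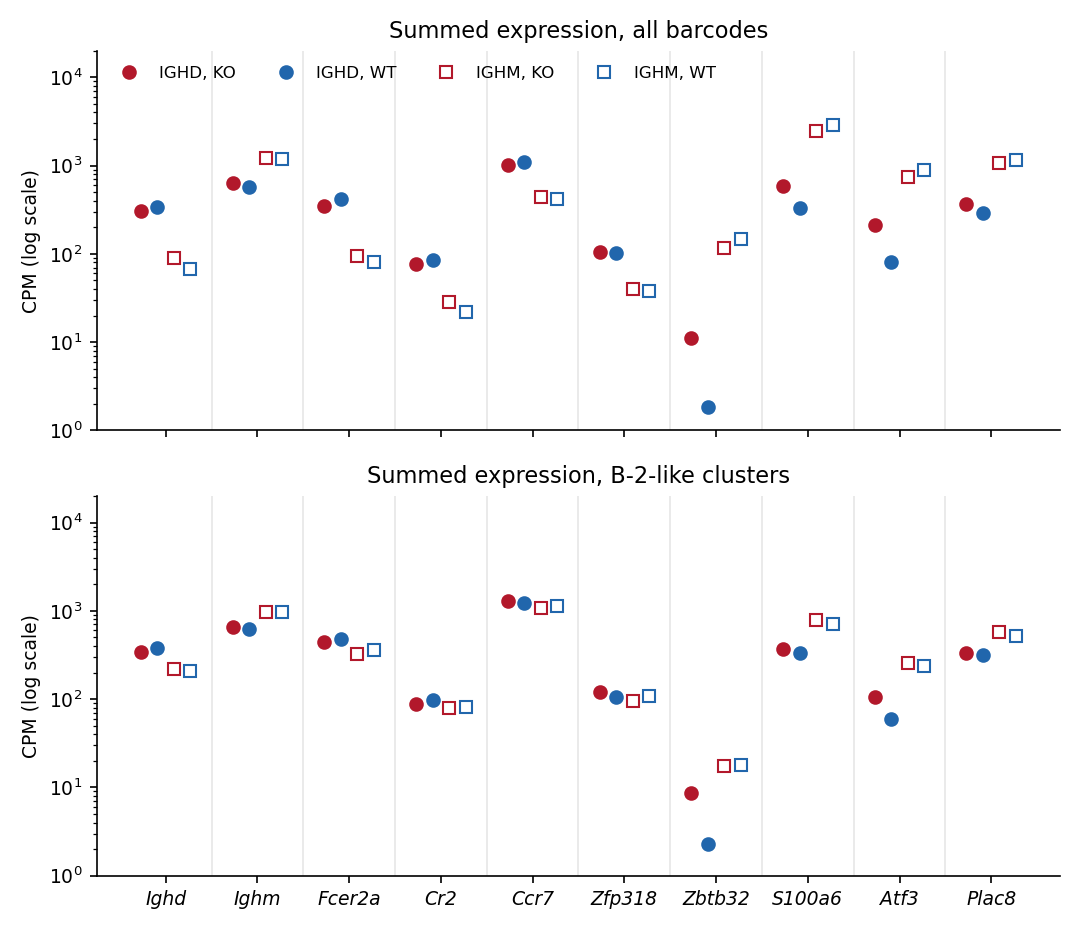
Summed expression (vertical axes, CPM on a log scale) of 10 genes (horizontal axis) in IGHD (filled circles) and IGHM (open squares) barcodes of the KO (red) and WT (blue) libraries, over all barcodes (upper panel) and over B-2-like clusters (lower panel). Fcer2a, Cr2, Ccr7 and Zfp318 stand higher and Zbtb32 and S100a6 lower in IGHD over all barcodes; within B-2-like clusters the distances are smaller, and Cr2 is at 88.2 CPM in KO and 97.0 CPM in WT IGHD against 80.1 and 81.9 CPM in IGHM.

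B-1 identity genes were mostly lower in IGHD barcodes. Of 28 tested, 20 were lower and 2 higher, beside 5.83% lower and 2.56% higher over all genes, with a median log2 fold change of −0.82. Zbtb32, a repressor that marks B-1a cells, was at 11.2 CPM in KO and 1.84 CPM in WT IGHD barcodes, against 118 and 149 CPM in IGHM barcodes (log2 −4.16, SE 0.237, adjusted p = 2.4e-65). S100a6, a calcium-binding protein, was at 586 CPM in KO and 332 CPM in WT IGHD barcodes, against 2493 and 2896 CPM in IGHM barcodes (log2 −2.71, SE 0.101, adjusted p = 2.7e-152). For both genes all IGHM sums were above all IGHD sums, and S100a6 did not pass with DESeq2 (adjusted p = 0.075). Plscr1, a phospholipid scramblase, had a log2 fold change of −2.72, Bhlhe41, a transcription factor that B-1a cells depend on, −2.32, and Ctla4 −2.44. Cd5, which defines B-1a cells on the surface, was at 15.9 CPM in KO and 36.7 CPM in WT IGHD barcodes, against 28.5 and 32.0 CPM in IGHM barcodes, and was not called (adjusted p = 0.31). The higher pair was Serpinb1a (log2 1.28), a protease inhibitor, and Apoe, of whose WT IGHD UMIs 88.9% came from 1 barcode and whose log2 fold change was −0.94 in B-cell clusters alone.

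Of 17 genes of activation, the germinal centre and antibody secretion 6 were lower, Jchain, Prdm1, Cd80, Egr1 and Apex1 among them, and 1, Cd69, was higher. The list median was −0.18, and over all genes 5.83% were lower and 2.56% higher. Jchain, which joins secreted IgM pentamers, had 0 UMIs in IGHD barcodes of both libraries, against 34.4 CPM in KO and 36.2 CPM in WT IGHM barcodes. Against a limit of 3 UMIs per library this was at least 12.2-fold lower in KO and at least 6.57-fold lower in WT, and DESeq2 did not call it (adjusted p = 0.757). Prdm1, the regulator of plasma cells, was at 5.62 CPM in KO and 1.84 CPM in WT IGHD barcodes, against 31.4 and 30.5 CPM in IGHM barcodes (log2 −3.0, SE 0.39, adjusted p = 1.4e-12). Cd80, a costimulatory ligand, had a log2 fold change of −3.41, and Mzb1, a chaperone of immunoglobulin assembly, −1.39. Cd69, an early activation marker that retains cells in tissue, was by contrast higher, at 454 CPM in KO and 402 CPM in WT IGHD barcodes, against 243 and 186 CPM in IGHM barcodes (log2 0.84, SE 0.111, adjusted p = 3.3e-12). Odc1, the first enzyme of polyamine synthesis, was lower (log2 −1.63), as were the kinase Pim1 (−1.04) and the chaperone Pdia4 (−0.90). 

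The counts of the remaining lists are read beside 2.56% of all genes higher and 5.83% lower. Of 17 genes of the unfolded protein response 2 were lower and 0 higher. Of 20 interferon-induced genes 1, Gbp2, was lower, a call that was lost with DESeq2. Of 12 Toll-like receptor genes 3 were lower and 0 higher, with a median of −0.40. Of 12 genes of BAFF receptors and survival 1 was higher and 3 lower (median −0.20), and of 17 MYC and growth genes 4 were lower (median −0.20). Inhibitory receptors had 3 of 14 higher and 4 lower, transitional and marginal-zone genes 2 of 13 in each direction, and immediate-early and heat-shock genes 3 of 19 higher and 2 lower.

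Markers of other cell types were present in the IGHD sums. The 8 NK-cell genes summed to 342 CPM in KO and 103 CPM in WT IGHD barcodes, against 169 and 88.6 CPM in IGHM barcodes, and 3 of the 8 were at 0 in WT IGHD. The 12 macrophage and monocyte genes summed to 1185 CPM in KO and 2495 CPM in WT IGHD barcodes, against 969 and 723 CPM in IGHM barcodes. Most of the WT sum was Lyz2, which encodes lysozyme, at 1840 CPM, of which 99.6% came from 1 barcode. Within B-2-like clusters the NK sums were 8.68 CPM in KO and 2.31 CPM in WT IGHD, with 5 and 7 of the 8 genes at 0, and the macrophage sums were 379 and 309 CPM, beside 412 and 322 CPM in IGHM. In B-cell clusters only, 1074 of 11389 genes were called, beside 1031 of 12291 over all barcodes.

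Within B-2-like clusters the 2 classes were much closer. Of 9693 genes tested 135 (1.39%) were called, 47 (0.485%) higher and 88 (0.908%) lower in IGHD. Immunoglobulin genes made up 94 of the 135, out of 191 tested (49.2%), and other genes 41, out of 9502 (0.431%). The count was 17 with DESeq2, 22 with no replicate block and 22 with 1 barcode per clone. On simulated counts the fit recovered 20.9% of genes with a 2-fold change in these clusters, against 47.8% over all barcodes. Genes not called here may therefore still differ. Of the B-2 and follicular list 2 of 19 genes were called, Fcer2a and Ighd, and the list median was 0.13, against −0.0044 over all genes. Of the B-1 identity list 3 of 26 were lower and 1 higher. Neither Zfp318 (log2 0.18, SE 0.145, adjusted p = 0.92) nor any other of the 12 transcript-processing genes tested was called. IGHD barcodes of these clusters had medians of 1731.5 UMIs in KO and 3567 in WT, beside 2165 and 3814 in IGHM barcodes.

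Lower expression of Atf3, S100a6 and Plac8 remained among B-2-like barcodes. Atf3, a stress-response transcription factor, was at 106 CPM in KO and 60.1 CPM in WT IGHD barcodes, against 253 CPM in KO and 238 CPM in WT IGHM barcodes (log2 −1.53, SE 0.129, adjusted p = 4.2e-29). S100a6 was at 373 CPM in KO and 330 CPM in WT IGHD barcodes, against 783 and 712 CPM in IGHM barcodes (log2 −1.10, SE 0.089, adjusted p = 2.4e-31). Plac8, a small cysteine-rich protein of lymphoid and myeloid cells, was at 328 CPM in KO and 314 CPM in WT IGHD barcodes, against 571 and 518 CPM in IGHM barcodes (log2 −0.78, SE 0.0955, adjusted p = 2.7e-13). These 3 genes were also called with DESeq2, with no replicate block and with 1 barcode per clone. Ighd was at 343 CPM in KO and 383 CPM in WT IGHD barcodes, against 216 and 208 CPM in IGHM barcodes. Ighm was at 663 CPM in KO and 626 CPM in WT IGHD barcodes, against 973 and 980 CPM in IGHM barcodes. In the same cluster class IGHD barcodes held more Ighd and less Ighm, a direction that is not independent of how the barcodes were sorted. Both transcripts were present in both classes.

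Other genes called within B-2-like clusters had smaller or less stable differences. Fcmr, the receptor for the IgM Fc part, was at 746 CPM in KO and 797 CPM in WT IGHD barcodes, against 530 and 603 CPM in IGHM barcodes (log2 0.44, SE 0.081, adjusted p = 1.3e-05). Fcer2a was at 440 CPM in KO and 478 CPM in WT IGHD barcodes, against 321 and 363 CPM in IGHM barcodes (log2 0.41, SE 0.0962, adjusted p = 0.0021). Fcmr was not called without the replicate block (adjusted p = 0.35), and Fcer2a was called neither there (0.51), nor with DESeq2 (0.66), nor with 1 barcode per clone (0.084). The 12 highest fold changes also included Zc3h18 (log2 0.98), an RNA-processing factor, Il4i1 (0.92), Sdhaf1 (0.61), Dipk1a (0.59) and Lars2 (0.53), the mitochondrial leucyl-tRNA synthetase. The 12 lowest also included Ptpn22 (−1.37), a phosphatase that dampens antigen-receptor signalling, Cd9 (−1.34), a tetraspanin of B-1 cells, Nid1 (−1.23), Epcam (−0.98), Fgd2 (−0.81) and Irak3 (−0.80). None of the 11 genes named in the last 2 sentences was called with DESeq2, without the block or with 1 barcode per clone. Cr2 (log2 0.17), Ccr7 (0.18) and Bach2 (0.03) were not called, with adjusted p = 0.947, 0.259 and 0.9995.

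KO and WT IGHD barcodes were set side by side as ratios of CPM, and a gene was counted when it had at least 50 CPM in a library and its whole interval was past 1.5-fold in either direction. Of 3222 genes 75 (2.33%) were past that limit, 38 (1.18%) higher and 37 (1.15%) lower in KO. Immunoglobulin genes were 40 of the 75. Many of the others were genes of NK cells or macrophages carried by few barcodes. Gzma, a granzyme of cytotoxic cells, was at 59.95 CPM in KO IGHD barcodes, in 9 barcodes, and at 0 UMIs in WT IGHD barcodes. Prg4, a lubricin made by large peritoneal macrophages, was at 36.5 CPM in KO and 327 CPM in WT IGHD barcodes, all of it from 1 barcode in WT. The 12 lowest ratios outside the immunoglobulins, Prg4 and Fn1 among them, had between 93.1% and 100% of their WT UMIs in 1 barcode. Among the 12 highest, Slpi, a protease inhibitor, had 97.7% and Ccl4, a chemokine, 92.8% of its KO UMIs in 1 barcode. Spread over more barcodes were Anxa2, a membrane-binding protein of the B-1 list, at 129 CPM in KO and 42.2 CPM in WT, a ratio of 3.06 (1.96 to 4.99), and Atf3, at 214 CPM in KO and 80.8 CPM in WT, a ratio of 2.66 (1.92 to 3.76). Within B-2-like clusters Anxa2 stood at 1.48 with bounds of 0.769 and 2.99 that include 1, and Atf3 at 1.76 (1.11 to 2.87), no longer past 1.5-fold. All 8 NK-cell genes had intervals above 1, and 8 of 11 macrophage genes had intervals below 1, beside the marker sums given above. Over all genes at 10 CPM or more, 4.13% had intervals above and 5.32% below 1.

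Among IGHD barcodes of B-2-like clusters 52 of 3228 genes (1.61%) were past the limit, 26 (0.805%) higher and 26 (0.805%) lower in KO. Of the 52, 45 were immunoglobulin genes and 7 others. Ranking within these clusters was added after the values over all IGHD barcodes had been seen. Irf2bp2, a transcriptional corepressor, was at 69.4 CPM in KO and 157 CPM in WT IGHD barcodes, a ratio of 0.442 (0.299 to 0.649), and the IGHM ratio was 0.392 (0.358 to 0.43). Sfxn3, a mitochondrial serine carrier, was at 10.1 CPM in KO and 62.4 CPM in WT IGHD barcodes, a ratio of 0.162 (0.0597 to 0.382), with an IGHM ratio of 0.548 (0.463 to 0.647). Both genes were lower in KO in either heavy-chain class. Pdlim1, a cytoskeletal adaptor, was at 43.4 CPM in KO and 106 CPM in WT IGHD barcodes, a ratio of 0.408 (0.249 to 0.661), with an IGHM ratio of 0.605. Odc1 was at 59.3 CPM in KO and 136 CPM in WT IGHD barcodes, a ratio of 0.435 (0.285 to 0.659), and Lars2 was at 606 CPM in KO and 1399.7 CPM in WT, a ratio of 0.433 (0.381 to 0.491). For these 2 genes the IGHM ratios were nearer to 1, at 0.88 (0.804 to 0.963) and 0.861 (0.829 to 0.895). Apart from a predicted gene left out of the ranking, the gene past the limit upwards was Lyz2, at 62.2 CPM in KO, in 39 barcodes, and 6.93 CPM in WT, in 3 barcodes, a ratio of 8.98 (2.87 to 45.2). In clones of 1 barcode only, Irf2bp2 at 0.456 (0.283 to 0.718) and Odc1 at 0.507 (0.309 to 0.812) were no longer past the limit. Pdlim1 was at 0.169 (0.0642 to 0.376) and Sfxn3 at 0.246 (0.0831 to 0.609) there, both more than 1.5-fold from the values above. Lyz2 was also at 52.4 CPM in KO and 8.99 CPM in WT T-like clusters, cells that should lack it.

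**Figure D5:**
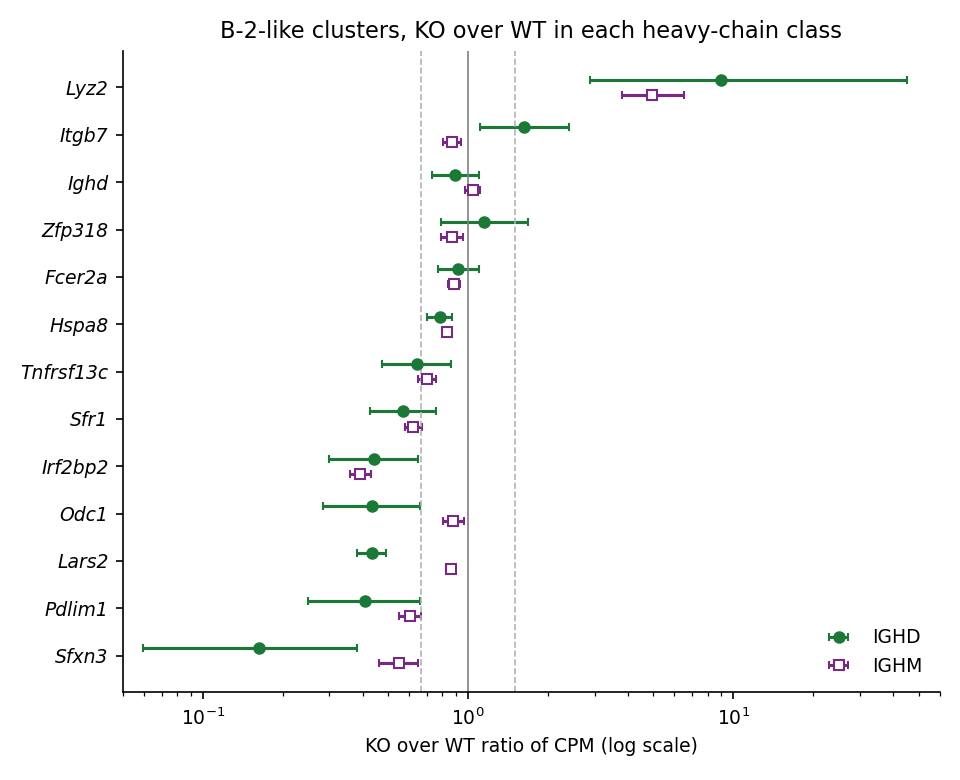
KO over WT ratio of CPM (horizontal axis, log scale) of 13 genes (vertical axis) in IGHD (green circles) and IGHM (open purple squares) barcodes of B-2-like clusters, with exact conditional 95% intervals that cover counting error only. Dashed lines mark 1.5 and its inverse; Lyz2 stands at 8.98 and Irf2bp2 at 0.442 in IGHD barcodes, and the interval of Ighd, 0.73 to 1.10, holds 1.

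Genes that define the IGHD class were close to 1 between the genotypes. Within B-2-like clusters the KO over WT ratio was 0.894 (0.73 to 1.10) for Ighd, 1.06 (0.909 to 1.23) for Ighm, 1.14 (0.789 to 1.68) for Zfp318, 0.92 (0.768 to 1.10) for Fcer2a and 0.91 (0.604 to 1.38) for Cr2, and all 5 intervals hold 1. Over the 7834 genes at 10 CPM or more in these clusters 3.03% had intervals above 1 and 4.48% below 1. Over all IGHD barcodes 0 of 11 genes of the BAFF and survival list had intervals above 1 and 2 below, Tnfrsf13c and Bcl2. Of the 8103 genes at 10 CPM or more in all IGHD barcodes, 4.13% had intervals above 1 and 5.32% below 1. The values that follow are those of B-2-like clusters. Tnfrsf13c, the BAFF receptor on which mature B cells depend, was at 136 CPM in KO and 212 CPM in WT, a ratio of 0.64 (0.475 to 0.863), with an IGHM ratio of 0.701 (0.65 to 0.757). Bcl2, an inhibitor of apoptosis, was at 69.4 CPM in KO and 120 CPM in WT, a ratio of 0.578 (0.382 to 0.873), with an IGHM ratio of 0.833. Cxcr5 was at 94.0 CPM in KO and 164 CPM in WT, a ratio of 0.573 (0.403 to 0.814), with an IGHM ratio of 0.896. The heat-shock protein gene Hspa8 was at 1115 CPM in KO and 1425 CPM in WT, a ratio of 0.783 (0.703 to 0.871), with an IGHM ratio of 0.832. Sfr1, a recombination cofactor, had a ratio of 0.567 (0.426 to 0.755), with an IGHM ratio of 0.621.

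The mitochondrial transcript mt-Co1 was higher in KO, at 3922 CPM against 3083 CPM in WT IGHD barcodes of B-2-like clusters, a ratio of 1.27 (1.19 to 1.36), and mt-Atp6 had a ratio of 1.40 (1.27 to 1.55). KO IGHD barcodes had a median mitochondrial share of 1.89% of UMIs over all clusters, beside 1.40% in WT IGHD barcodes. Itgb7, a gut-homing integrin chain, was at 146 CPM in KO and 90.1 CPM in WT IGHD barcodes, a ratio of 1.62 (1.11 to 2.41), whereas its IGHM ratio was 0.867 (0.802 to 0.937). KO IGHD barcodes were shallower than WT ones by their median UMIs, and the part of depth in these ratios was not tested beyond the thinning to 1000 UMIs, under which 51 genes, 32 of them among the 75, were past the limit.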

How the data were processed

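Expression and B-cell receptor libraries of peritoneal CD45+ cells were deposited for 1 KO and 1 WT sample each. The expression matrices hold UMI counts made by the authors with Cell Ranger, whose version is 6.0.1 per the submitters' processing notes and 6.1.2 per the file headers; the notes also name Seurat 4.3.0. The receptor tables hold, per the file headers, UMI counts per contig with V, J and constant gene calls. The deposited matrices are gene by barcode counts, with no normalisation. The members and the gene lists were chosen with earlier results of these data known. The disrupted gene is not reported here.

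A barcode was kept from 200 genes upwards if its mitochondrial share stayed below 10%. For each barcode the heavy-chain contig with most UMIs set its class. Clusters were computed with scanpy 1.11.5 (normalised to 10000, 2000 variable genes without immunoglobulin genes, 30 principal components, 15 neighbours, Leiden resolution 1) and named from listed markers. Scrublet's automatic threshold marked 0 barcodes, so the highest scores, at a rate of 0.8% per 1000 barcodes, were called doublets (17.3% of KO and 7.93% of WT kept barcodes) and left out of the clustering only.

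IGHD and IGHM sums were compared with edgeR 4.0.16 (R 4.3.3, quasi-likelihood, library as block because both classes of a library share it); DESeq2 1.42.0 was an alternative. Ratios of counts have exact conditional binomial intervals and shares have exact Clopper-Pearson intervals, except the KO over WT ratio of IGHD shares, which has a normal approximation on the log scale. Thinning drew 1000 UMIs per barcode. The fit was tested on simulated counts: at a 4-fold change over all barcodes it recovered 78.8% of 66 genes among 12306, and at a 2-fold change 47.8% of 67. Within B-2-like clusters it recovered 71.2% of 66 genes at a 4-fold, 20.9% of 67 at a 2-fold and 2.99% of 67 at a 1.5-fold change.

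Genes were named by rule: the 12 highest and 12 lowest fold changes among called genes with the same direction in both libraries and at least 20 CPM, without immunoglobulin, T-cell receptor, mitochondrial, ribosomal, haemoglobin, sex-linked and predicted genes; for KO against WT, the 12 highest and 12 lowest ratios past 1.5 at 50 CPM or more; and members of the gene lists. Sfr1, mt-Co1 and mt-Atp6 fall outside the rule and were chosen after their values were seen.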

Additional observations from a re-analysis of the deposited data

Results flagged for a closer look

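The ratios below fell on opposite sides of 1 in the compared classes with intervals that exclude 1, and none of these differences was tested. Over all barcodes the KO over WT ratio was 3.06 in IGHD and 0.865 in IGHM barcodes for Anxa2, and 2.66 and 0.844 for Atf3. It was 1.76 in IGHD and 0.861 in IGHM barcodes for S100a6, and 1.47 and 0.874 for Itgb7. Lower in KO among IGHD barcodes but higher among IGHM barcodes were Fcer2a, at 0.817 in IGHD and 1.16 in IGHM, H2-Ob, at 0.833 and 1.06, and Hnrnpf, at 0.854 and 1.03. Lyz2 stood at 0.354 in IGHD and 1.42 in IGHM barcodes, and Fn1, a matrix protein of macrophages, at 0.229 and 1.16, and 1 WT barcode held 99.6% and 100% of their WT IGHD UMIs. Within B-2-like clusters Anxa2 was at 1.48 (0.769 to 2.99) in IGHD and 1.04 in IGHM barcodes, Atf3 at 1.76 (1.11 to 2.87) and 1.07, and S100a6 at 1.13 (0.918 to 1.40) and 1.10. There Fcer2a was at 0.92 (0.768 to 1.10) in IGHD and 0.885 in IGHM barcodes, H2-Ob at 0.828 and 0.901, and Lyz2 at 8.98 and 4.95, so none of these 6 genes had opposite directions in B-2-like clusters. Opposite directions were present there for 2 genes: Itgb7 was at 1.62 in IGHD and 0.867 in IGHM barcodes, and Hnrnpf at 0.819 and 1.05. Cd209a, a dendritic-cell lectin, had an IGHD over IGHM ratio of 1.51 in KO and 0.192 in WT, with 5 KO and 2 WT IGHD barcodes that held it.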

How the results depend on the processing

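The library is a block that both classes share, and without it the IGHD against IGHM test called 320 genes over all barcodes and 22 within B-2-like clusters, against 1031 and 135 with it. Over all barcodes DESeq2 called 341 genes, clones of 1 barcode only 512, and the comparison with IGHM barcodes that also hold an IGHD contig 118 of 6033 genes tested. Within B-2-like clusters DESeq2 called 17 genes, 1 barcode per clone 22, contigs of at least 3 UMIs 75 and a mitochondrial limit of 5% 80. Leaving out a library left 1 library, so only fold changes could be given. The IGHD share was 3.85% in KO and 2.81% in WT with 1 barcode per clone, 3.09% in KO with contigs of at least 3 UMIs, and 7.66% in KO and 6.67% in WT in B-2-like clusters, where the KO over WT ratio was 1.15. For single genes 972 alternative values kept direction and call, 139 lost the call, 21 moved and 10 reversed. The IGHD over IGHM log2 fold change of Apoe, 0.50, reversed to −0.94 in B-cell clusters and to −0.21 without WT replicate 1, and without KO replicate 1 it was 1.45. That of Gzma, 1.19, reversed to −0.80 with DESeq2, to −0.24 with that small comparator and to −2.43 without KO replicate 1, and without WT replicate 1 it was 1.61. The KO over WT ratio reversed for Apoe (1.48 in B-cell clusters, 1.67 in B-2-like clusters) and for Lyz2 (1.23 thinned to 1000 UMIs, 8.94 in B-cell clusters, 8.98 in B-2-like clusters). The cause was not tested. The clusters hold no called doublets, so the doublet alternative was not run within B-2-like clusters. Clones of 1 barcode only, B-cell clusters and B-2-like clusters as alternatives were chosen after seeing the data.

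Depth limits these results: the 137 WT IGHD barcodes hold 544665 UMIs, so 3 counts correspond to 5.51 CPM there, against 2.81 CPM in KO. With 1 library per genotype no spread between mice can be had. The class test has 1 residual degree of freedom, and its spread is drawn towards a value shared over genes.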

Other observations

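Charge and composition of the heavy-chain CDR3 were not used above. The mean net charge was −0.36 in KO and −0.20 in WT IGHD barcodes, against −0.43 and −0.50 in IGHM barcodes. Tyrosine made up 17.0% of CDR3 residues in KO and 17.5% in WT IGHD barcodes, against 18.2% and 18.6% in IGHM barcodes. Within B-2-like clusters the mean net charge was −0.42 in KO and −0.25 in WT IGHD barcodes, against −0.35 and −0.37 in IGHM barcodes, so in KO the order of the classes turned. Tyrosine was there at 16.8% in KO and 17.5% in WT IGHD barcodes, beside 17.3% and 17.5% in IGHM barcodes, so the classes lay closer in tyrosine.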
